A study of Mus musculus with 32 samples.

Results

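The genes described here are 9 genes of the YAP and TEAD transcription programme in mouse FE1 cells exposed to hydrazine. They were the 7 target genes Cyr61 (Ccn1), Ctgf (Ccn2), Ankrd1, Amotl2, Lats2, Ajuba and Axl, with Yap1 and Tead1 themselves, chosen by name from the gene table. All 9 were found among its 49585 entries, and all 9 were among the 13258 genes that passed the filter on low counts. FE1 is an immortalised line derived from the lung of the Muta Mouse and is labelled lung epithelial, and hydrazine is a small reactive nitrogen compound. Cells received 0 (vehicle), 1, 4, 6 or 10 mM hydrazine for 4 h and were collected at once, or were kept for another 20 h after the compound was washed out. The 10 groups held 3 libraries each, except 4 mM at 4 h, which held 5, and every group came from the same line with no other agent named. No label states whether replicates were grown as separate cultures. The p-values therefore measure only the spread between these libraries, and that spread may be technical.

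YAP1 is a transcriptional co-activator that has no DNA-binding domain of its own and acts through TEAD proteins, which bind a short motif in promoters and enhancers. The Hippo kinases, ending in LATS1 and LATS2, phosphorylate YAP1 and keep it in the cytoplasm, and a low cell density, a stiff matrix or a tense actin cytoskeleton lowers that restraint. Cyr61, Ctgf and Ankrd1 are the genes most often read as its output, while Amotl2, Lats2 and Ajuba are targets that act back on the pathway. Because YAP1 is governed largely at the protein level, its own transcript and the transcripts of its targets are separate measurements.

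Library totals ran from 10560942 to 17086721 expected counts, and the 9 genes had between 965 counts (the lowest Ajuba library) and 39264 counts (the highest Ctgf library). Markers of the labelled cell type were near the floor: 0 of 6 epithelial markers passed the filter, their summed level was 0.225 to 1.48 CPM (counts scaled to a common library size) in any library, and Cldn4 had no count. Of 5 alveolar and club cell markers 0 passed, and Sftpa1 and Sftpc had no count. All 6 mesenchymal markers passed, with a summed level of 17784 to 19131 CPM in the vehicle at 4 h and 20631 to 21472 CPM at 10 mM. Their part in the results below was not tested. The library of 6 mM after washout named replicate c stood apart from its group: the SD of its log2 differences from its group mates was 0.583, against 0.432 for the next library and a median of 0.351. Since all libraries share the estimate of the spread, counts are also given without it.

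Promoter windows from RefSeq (GRCm38.p6, 250 bases before to 50 bases after a gene's start) were found for 7 of the 9 genes in 8 windows. They were read for GGAATG on either strand, the core that TEAD proteins recognise, and for TGANTCA on either strand, the site of AP-1. The TEAD letters were in 7 of the 8 windows and in at least 1 window of each of the 7 genes, against 14.7% of all 32851 windows of that length. Ankrd1 and Ajuba each held 2 copies, which 1.4% of all windows did. In Lats2 the match began 4 bases after the start, and Axl had its match 233 bases before the start. The AP-1 letters were in 0 of the 8 windows and in 7.8% of all windows. A match is a description of these letters and not a site of binding. The 5 sequences below are the 250 bases before the start for Cyr61 and Ankrd1, which were higher at 10 mM, and for Amotl2, Ajuba and Yap1, which were lower. Capitals mark GGAATG or its reverse complement.
Cyr61, chr3:145649986-145650235, minus strand: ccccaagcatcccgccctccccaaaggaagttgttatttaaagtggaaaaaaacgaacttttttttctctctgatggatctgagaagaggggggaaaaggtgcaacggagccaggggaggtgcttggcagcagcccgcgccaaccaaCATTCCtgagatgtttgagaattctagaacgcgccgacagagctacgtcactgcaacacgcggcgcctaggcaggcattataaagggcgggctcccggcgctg
Ankrd1, chr19:36119845-36120094, minus strand: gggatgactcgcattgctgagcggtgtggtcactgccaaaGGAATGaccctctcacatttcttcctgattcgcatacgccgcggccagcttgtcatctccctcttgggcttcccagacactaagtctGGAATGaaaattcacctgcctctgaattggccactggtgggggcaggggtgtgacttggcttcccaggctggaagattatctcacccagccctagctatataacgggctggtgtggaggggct
Amotl2, chr9:102717554-102717803, plus strand: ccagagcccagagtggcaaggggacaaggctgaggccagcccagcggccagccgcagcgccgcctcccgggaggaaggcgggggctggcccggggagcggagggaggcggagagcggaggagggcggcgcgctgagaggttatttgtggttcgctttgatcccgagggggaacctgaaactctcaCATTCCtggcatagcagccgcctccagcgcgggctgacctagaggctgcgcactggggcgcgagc
Ajuba, chr14:54577662-54577911, minus strand: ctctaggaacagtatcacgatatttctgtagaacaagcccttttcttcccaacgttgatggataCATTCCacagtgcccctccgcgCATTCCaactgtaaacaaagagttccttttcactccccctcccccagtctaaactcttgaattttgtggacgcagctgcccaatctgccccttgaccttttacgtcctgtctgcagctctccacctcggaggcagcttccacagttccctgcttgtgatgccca
Yap1, chr9:8004597-8004846, minus strand: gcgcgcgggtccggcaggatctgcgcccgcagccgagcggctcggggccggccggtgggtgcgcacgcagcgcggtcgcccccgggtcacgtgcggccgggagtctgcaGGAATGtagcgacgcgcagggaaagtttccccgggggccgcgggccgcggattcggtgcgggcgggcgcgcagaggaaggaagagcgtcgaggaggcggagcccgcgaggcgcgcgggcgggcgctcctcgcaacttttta
In these windows the match began 103 bases before the start in Cyr61 and 65 bases before it in Amotl2. Ankrd1 had its copies at 210 and 123 bases, Ajuba at 186 and 164 bases, and Yap1 at 141 bases before the start. Ctgf and Tead1 had no window.

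Scaled for length, the transcripts of the 9 genes differed widely in the vehicle at 4 h. Ctgf, a secreted matricellular protein, had the highest level at 202 CPM per kb of exon, and the receptor tyrosine kinase Axl followed at 174 CPM per kb. Cyr61 stood at 84.0, Amotl2 at 78.0 and Ankrd1 at 51.4 CPM per kb. Ajuba (30.9), Tead1 (25.7), Yap1 (20.2) and Lats2 (16.8 CPM per kb) formed the lower end. The order compares means on a per-length scale and was not tested between genes. Gene positions given below are those of GENCODE M21 on GRCm38, and the values count reads over a whole gene.

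**Figure D1:**
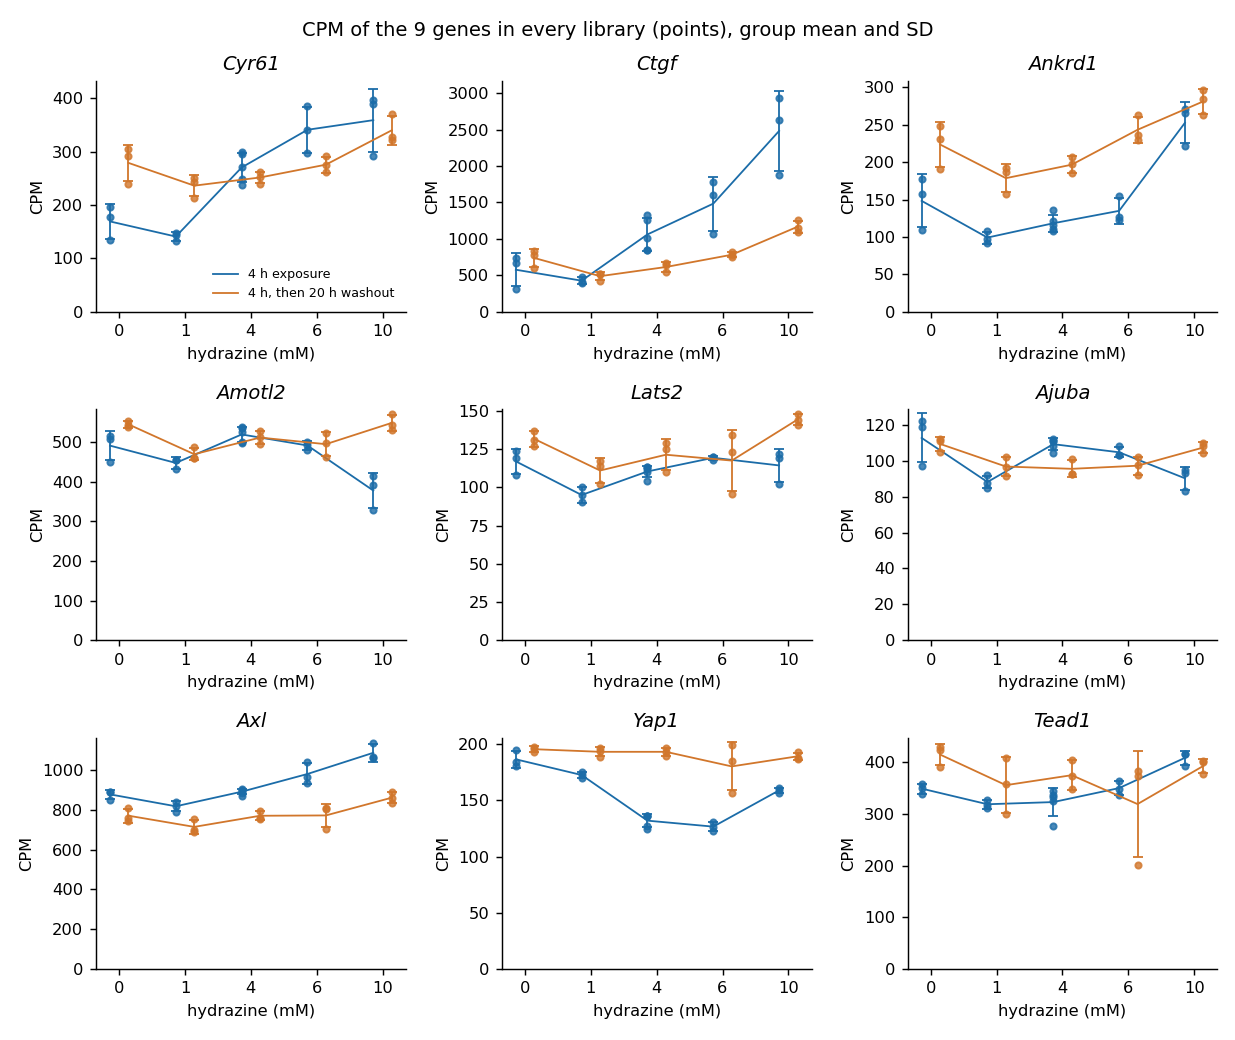
CPM (vertical axis, from 0) of each of the 9 genes in every library against hydrazine dose (mM, doses evenly spaced), at 4 h in blue and after washout in orange. Points are libraries, lines join group means and bars are SDs. Ctgf at 4 h climbed from a mean of 577 CPM to 2481 CPM, and Yap1 at 4 h dipped to 127 CPM at 6 mM.

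At 4 h, hydrazine at 4 mM and above raised the secreted targets Cyr61 and Ctgf and lowered Yap1, while the remaining genes did not move together. Called here means an adjusted p under 0.05 in the quasi-likelihood test of edgeR, with Benjamini-Hochberg adjustment across the tested genes of a comparison. At 4 mM 2 genes were called higher and 2 lower, in a comparison where 38.6% of all tested genes were called (19.5% higher and 19.1% lower). At 6 mM 3 were called higher and 1 lower, against 39.8% of all genes (20.3% higher and 19.6% lower). At 10 mM 4 were called higher and 3 lower, against 50.1% of all genes (26.0% higher and 24.1% lower). These shares of the 9 genes were 4, 4 and 7 of 9, so at 4 and 6 mM they lay near the background. In a bulk measurement such as this, fewer cells of a type and less RNA per cell cannot be told apart. The median log2 fold change of the 9 genes at 10 mM was 0.23, against 0.01 over all tested genes.

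Cyr61 encodes a secreted matricellular protein that binds integrins. Its gene, ENSMUSG00000028195.4, lies on the minus strand at chr3:145646976-145649981. It measured 177, 134 and 197 CPM in the vehicle libraries at 4 h, and 132, 143 and 148 CPM at 1 mM. At 4 mM its libraries ran from 238 to 299 CPM with a median of 272 CPM. The 6 mM libraries read 340, 298 and 385 CPM, and those of 10 mM read 390, 291 and 396 CPM. All libraries of 4, 6 and 10 mM lay above all vehicle libraries, whereas those of 1 mM overlapped the vehicle. The log2 fold change was 0.67 ± 0.12 (SE) at 4 mM (edgeR adjusted p = 3.54e-05), 1.01 ± 0.13 at 6 mM (3.45e-07) and 1.08 ± 0.13 at 10 mM (7.14e-08). The last value is a 2.12-fold rise. From 6 to 10 mM the libraries overlapped, the means were 341 ± 43.8 and 359 ± 59.4 CPM (SD, n = 3 each) and no change was called (edgeR adjusted p = 0.678).

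Ctgf (ENSMUSG00000019997.11, chr10:24595442-24598683, plus strand) is the closest relative of Cyr61 among these genes. Ctgf had larger log2 fold changes than Cyr61 from 4 mM upward, a difference that was not tested. Its vehicle libraries were at 676, 317 and 740 CPM and those of 1 mM at 391, 413 and 478 CPM. The 5 libraries of 4 mM measured 1260, 1019, 1328, 853 and 848 CPM. At 6 mM they measured 1599, 1069 and 1784 CPM, and at 10 mM 2633, 1872 and 2937 CPM. Each group from 4 mM upward lay wholly above the vehicle, and the 10 mM libraries lay wholly above those of 6 mM. The log2 fold change against vehicle was 0.88 ± 0.22 at 4 mM (edgeR adjusted p = 0.00299), 1.36 ± 0.25 at 6 mM (9.61e-05) and 2.10 ± 0.25 at 10 mM (2.45e-07), the last a 4.3-fold rise. From 6 to 10 mM it rose by a further 0.74 ± 0.24 (edgeR adjusted p = 0.0187). That step was not called when replicate b of 6 mM, or a or c of 10 mM, was left out, nor in the fit of the 4 h libraries alone, and its adjusted p ranged from 0.00354 to 0.123 over the alternatives. The low vehicle library, replicate b, widened the vehicle SD to 228 CPM around a mean of 577 CPM.

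Ankrd1 encodes a muscle ankyrin repeat protein that responds to stretch and is a sensitive YAP reporter. Its gene, ENSMUSG00000024803.8, lies on the minus strand at chr19:36111961-36120099. Its course differed from that of Cyr61 and Ctgf: it was lower than vehicle at 1 mM and higher at 10 mM. It measured 158, 109 and 178 CPM in the vehicle and 92.5, 97.3 and 108 CPM at 1 mM, so that every library of 1 mM lay below every vehicle library. At 4 mM it ran from 108 to 136 CPM with a median of 116 CPM, while the 6 mM libraries read 127, 123 and 155 CPM. At 10 mM it stood at 266, 221 and 271 CPM, above all libraries of the lower doses at 4 h. The log2 fold change was -0.58 ± 0.13 at 1 mM (edgeR adjusted p = 0.00622), -0.33 ± 0.12 at 4 mM (0.0304) and 0.77 ± 0.13 at 10 mM (2.66e-05). At 6 mM no change was called (edgeR adjusted p = 0.455). The step from 6 to 10 mM was 0.90 ± 0.13 (edgeR adjusted p = 6.39e-06). The fall at 4 mM was not called under 4 of the other fits or without any 1 of 5 libraries (vehicle a or c, or 4 mM b, d or e), with adjusted p from 0.000431 to 0.285. The fall at 1 mM was not called without vehicle replicate c, where it was -0.44.

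**Figure D2:**
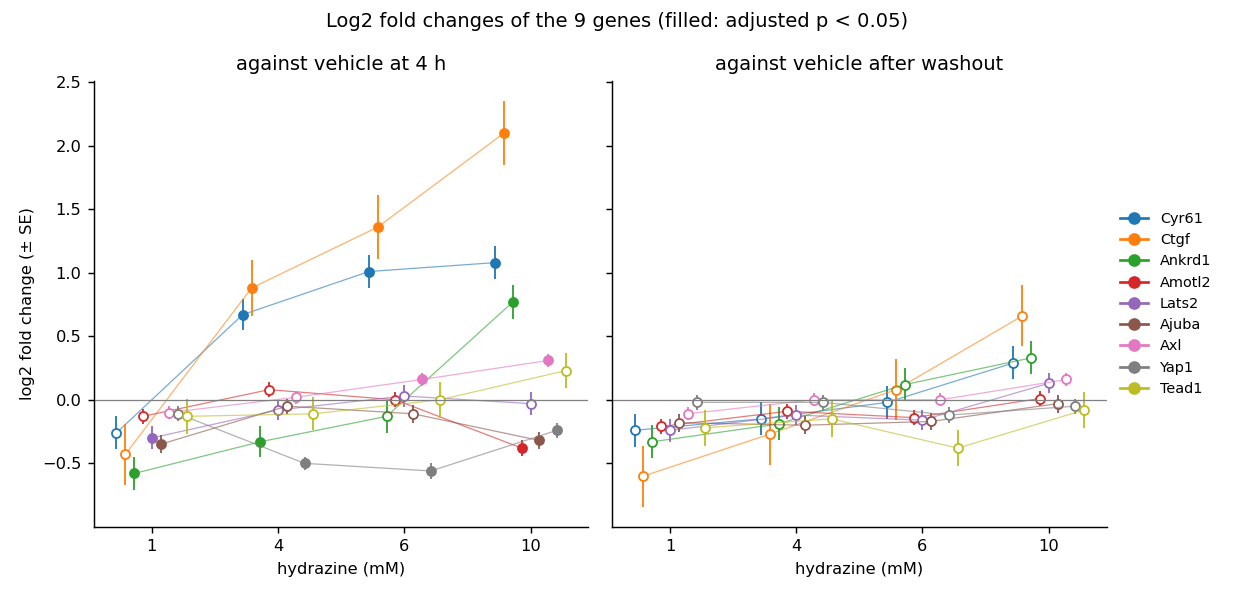
Log2 fold change (vertical axis, with SE bars) of the 9 genes against the vehicle of the same time, for each hydrazine dose (mM, doses evenly spaced), at 4 h on the left and after washout on the right. Filled points passed adjusted p under 0.05. Ctgf reached 2.10 at 10 mM at 4 h, Yap1 lay at -0.50 and -0.56 at 4 and 6 mM, and after washout no point is filled.

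Against vehicle at 4 mM and above, the targets that act back on the pathway were not called higher at 4 h, unlike Cyr61 and Ctgf. From 1 to 4 mM, however, these targets were called higher together with Cyr61 and Ctgf, by smaller amounts. The targets that act back are Amotl2 (ENSMUSG00000032531.15, chr9:102716672-102733418, plus strand), Ajuba (ENSMUSG00000022178.10, chr14:54567472-54577558, minus strand) and Lats2 (ENSMUSG00000021959.15, chr14:57689662-57758388, minus strand). Amotl2, an angiomotin family protein that holds YAP1 at cell junctions, measured 508, 450 and 515 CPM in the vehicle and 391, 328 and 414 CPM at 10 mM, with no overlap. It fell by 0.38 ± 0.06 on the log2 scale (edgeR adjusted p = 1.41e-05). At 6 mM it measured 493, 480 and 501 CPM, within the vehicle range. Of the 4 doses it was called only at 10 mM, and the step from 6 to 10 mM was -0.38 ± 0.06 (edgeR adjusted p = 2.55e-05). At 1 mM its libraries ran from 431 to 456 CPM and at 4 mM from 497 to 538 CPM, overlapping the vehicle.

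Ajuba, a LIM protein that binds and restrains the LATS kinases, measured 122, 97.0 and 119 CPM in the vehicle. It was at 87.5, 84.9 and 92.0 CPM at 1 mM and at 94.7, 82.9 and 93.0 CPM at 10 mM, below all vehicle libraries at each of these doses. At 4 mM it ran from 104 to 112 CPM and at 6 mM from 103 to 108 CPM, within the vehicle range. On the log2 scale the change was -0.35 ± 0.07 at 1 mM (edgeR adjusted p = 0.000744) and -0.32 ± 0.07 at 10 mM (0.000207). Ajuba was thus lower at the lowest and highest doses, and the rise from 1 to 4 mM was itself called at 0.31 ± 0.06 (edgeR adjusted p = 0.000285).

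Lats2, the kinase that phosphorylates YAP1, measured 119, 108 and 124 CPM in the vehicle, 90.1, 100 and 94.9 CPM at 1 mM, and 119, 102 and 122 CPM at 10 mM. The libraries of 1 mM lay below the vehicle and those of 10 mM overlapped it, as did those of 4 mM (104 to 113 CPM) and 6 mM (118 to 120 CPM). Its log2 fold change was -0.30 ± 0.09 at 1 mM (edgeR adjusted p = 0.0236) and -0.03 ± 0.09 at 10 mM (0.797). The call at 1 mM was lost without vehicle replicate a or c, or without replicate a of 1 mM, with adjusted p from 0.000656 to 0.109.

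Axl (ENSMUSG00000002602.16, chr7:25757273-25788705, minus strand), a receptor tyrosine kinase for the ligand Gas6, measured 852, 890 and 892 CPM in the vehicle. It was at 1039, 936 and 967 CPM at 6 mM and 1059, 1064 and 1139 CPM at 10 mM, above the vehicle at each. At 4 mM it ran from 871 to 904 CPM, overlapping the vehicle, and at 1 mM from 791 to 842 CPM, below it without a call. The rise was small, 0.16 ± 0.05 on the log2 scale at 6 mM (edgeR adjusted p = 0.018) and 0.31 ± 0.05 at 10 mM (1.91e-05), which is 1.24-fold. The call at 6 mM was lost without vehicle replicate a or replicate a of 6 mM and with no filter on low counts (adjusted p 0.00686 to 0.17 over the alternatives).

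Yap1 itself was lower at every dose from 4 mM upward, with a minimum at 4 and 6 mM (ENSMUSG00000053110.13, chr9:7931999-8004596, minus strand). Its vehicle libraries measured 181, 195 and 184 CPM and those of 1 mM 170, 175 and 173 CPM. At 4 mM they ran from 125 to 136 CPM with a median of 136 CPM, at 6 mM they were at 126, 123 and 131 CPM, and at 10 mM at 157, 161 and 159 CPM. The 4, 6 and 10 mM groups all lay below the vehicle, and the 10 mM group lay above those of 4 and 6 mM. Against vehicle the log2 fold change was -0.50 ± 0.05 at 4 mM (edgeR adjusted p = 3.59e-09), -0.56 ± 0.06 at 6 mM (4.21e-09) and -0.24 ± 0.06 at 10 mM (0.00108). The step from 6 to 10 mM was a rise of 0.32 ± 0.06 (edgeR adjusted p = 5.31e-05). Yap1 was therefore lowest at doses where Cyr61 and Ctgf were already raised, and at 10 mM, where Ctgf was highest, Yap1 had moved back toward the vehicle.

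Tead1 (ENSMUSG00000055320.17, chr7:112679318-112906807, plus strand), the DNA-binding partner, measured 339, 351 and 358 CPM in the vehicle and 394, 417 and 416 CPM at 10 mM. The groups did not overlap, but the log2 fold change of 0.23 ± 0.14 was not called (edgeR adjusted p = 0.188). Its spread was set largely by replicate c of 6 mM after washout, where Tead1 was at 201 CPM against 383 and 374 CPM in its group mates. Without that library the value was 0.21 ± 0.08 and was called (edgeR adjusted p = 0.0234, range 0.00585 to 0.409 over the alternatives). A fit to the 4 h libraries alone also called it, at 0.19. At 1 mM Tead1 ran from 311 to 328 CPM, at 4 mM from 276 to 344 CPM and at 6 mM from 337 to 365 CPM, with no call at these doses in the fit of all libraries. The fit to the 4 h libraries alone called it lower at 4 mM, at -0.13.

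At 1 mM all 9 genes had a negative log2 fold change at 4 h, with a median of -0.26, while 46.6% of all tested genes were negative. Ankrd1, Lats2 and Ajuba were called lower and 0 genes higher, in a comparison where 9.84% of all genes were called (4.48% higher and 5.36% lower). With DESeq2 the count was also 3. The shared vehicle libraries enter all 9 values, and the count depended on them. Without vehicle replicate b, which had the lowest Cyr61, Ctgf and Ankrd1 of that group, 5 genes were called lower, against 10.3% of all tested genes called. Cyr61 (-0.41, edgeR adjusted p = 0.0348, range 0.0348 to 0.635) and Ctgf (-0.73, edgeR adjusted p = 0.0283, range 0.0283 to 0.74) joined. Without vehicle replicate c only Ajuba was called, against 4.96% of all genes. Without replicate c of 6 mM after washout Yap1 joined the 3 genes at -0.13 (edgeR adjusted p = 0.0385, range 0.0385 to 0.627), against 14.9% of all genes.

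Of the steps between neighbouring doses from 1 mM up, that from 1 to 4 mM held the largest log2 differences of Cyr61 and Ctgf. There 5 genes were higher (Cyr61, Ctgf, Amotl2, Lats2 and Ajuba) and Yap1 was lower, against 24.7% of all tested genes called (11.6% higher and 13.2% lower). Cyr61 rose by 0.94 ± 0.12 on the log2 scale (edgeR adjusted p = 8.88e-07) and Ctgf by 1.31 ± 0.23 (0.000142). The Lats2 call was lost under 2 of the other fits and without any 1 of 6 libraries (a or c of 1 mM, or a, b, c or e of 4 mM), with adjusted p from 0.00255 to 0.169. From 4 to 6 mM 0 of the 9 genes were called by edgeR, against 8.06% of all genes. At an unadjusted p under 0.05 there were 3, DESeq2 called 2 (Cyr61 and Axl), and the lowest edgeR adjusted p was 0.0634. Leaving out any 1 of 5 libraries gave 1 call there (vehicle b, 4 mM c, 6 mM b and 10 mM b at 4 h for Cyr61, and 6 mM c after washout for Axl). From 6 to 10 mM Ctgf, Ankrd1, Axl and Yap1 were higher and Amotl2 and Ajuba lower, against 37.5% of all genes (19.5% higher and 18.0% lower). Without replicate b of 6 mM at 4 h, 3 of these 6 calls were left, those of Ankrd1, Amotl2 and Yap1. The share of all tested genes called was then 30.2%, so 3 of 9 genes lay near the background.

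After 20 h without hydrazine, 0 of the 9 genes were called at any dose by edgeR. The share of all tested genes called was 0.981% after 1 mM, 3.48% after 4 mM, 11.1% after 6 mM and 5.32% after 10 mM. At an unadjusted p under 0.05 there were 5, 1, 4 and 4 of the 9 genes, and DESeq2 called 1, 0, 1 and 1. Here and in the other comparisons the shares of all genes refer to the edgeR adjusted p. Counts at an unadjusted p or from DESeq2 therefore have no background beside them. The lowest edgeR adjusted p was 0.104, 0.0938, 0.0804 and 0.0808 in the same order. Counts of 1 or 2 appeared when single libraries were left out. Without replicate c of 6 mM after washout, Amotl2 and Lats2 were called lower after 1 mM, Ajuba lower after 4 mM and Axl higher after 10 mM. The share of all tested genes called was then 3.77% after 1 mM, 7.26% after 4 mM, 6.26% after 6 mM and 9.0% after 10 mM. Without vehicle replicate b at 4 h, which is not in these comparisons but shares the estimate of the spread, Ajuba was called lower after 4 and 6 mM and Ctgf higher after 10 mM. Without replicate a or b of 6 mM after washout, Tead1 was called lower after 6 mM, joined by Lats2 or Yap1. Those fits keep replicate c of that group, where Tead1 was at 201 CPM against 383 and 374 CPM in its group mates. Without replicate c, 0 of the 9 genes were called after 6 mM. Tead1 was then at -0.14 ± 0.09, Lats2 at -0.03 ± 0.07 and Yap1 at -0.03 ± 0.05 on the log2 scale. Without replicate b of 10 mM at 4 h, Amotl2 was called lower after 1 mM.

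Ctgf had the largest log2 fold change of the 9 genes after washout of 10 mM. It measured 783, 598 and 836 CPM in the washout vehicle and 1096, 1143 and 1262 CPM after 10 mM, with no overlap. The log2 fold change of 0.66 ± 0.24 was not called in the fit of all libraries (edgeR adjusted p = 0.13, range 0.00682 to 0.365). It was called in the fit to the washout libraries alone, where the adjusted p was the lowest of that range. Cyr61 was at 292, 240 and 305 CPM in the washout vehicle and at 322, 327 and 371 CPM after 10 mM. Ankrd1 was at 231, 191 and 249 CPM and at 263, 285 and 296 CPM. In these genes too the libraries of 10 mM lay above all of the vehicle, without a call (log2 fold changes of 0.29 ± 0.13 and 0.33 ± 0.13, edgeR adjusted p = 0.213 and 0.157). After this dose 5 of the 9 genes lay wholly above the washout vehicle and 1, Yap1, wholly below it. The share of all tested genes that separated in this way was not counted, and all 9 values share the same vehicle libraries.

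The other genes had smaller log2 fold changes than Ctgf, Cyr61 and Ankrd1 after washout of 10 mM, in either direction. In the fit of all libraries 0 of them were called by edgeR. Amotl2 measured 538, 542 and 554 CPM in the washout vehicle and 570, 531 and 544 CPM after 10 mM, so the fall seen at 4 h was no longer present in the means, and the log2 fold change was 0.01 ± 0.06 (edgeR adjusted p = 0.963). Ajuba measured 112, 105 and 111 CPM and then 108, 104 and 110 CPM, with overlap. Lats2 was at 137, 127 and 131 CPM and at 141, 144 and 148 CPM, above the vehicle in every library but not called (0.13 ± 0.08, edgeR adjusted p = 0.431). Axl was at 759, 742 and 811 CPM and at 861, 835 and 888 CPM, also wholly above the vehicle, with a log2 fold change of 0.16 ± 0.05 (edgeR adjusted p = 0.0808, range 0.0213 to 0.288). Yap1 ran from 187 to 193 CPM after 10 mM against 193 to 198 CPM, and Tead1 from 378 to 402 CPM against 392 to 430 CPM. Both of these were not called.

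After washout of 1 mM all 9 genes again had a negative log2 fold change, with a median of -0.22, while 50.6% of all tested genes were negative. Ctgf measured 520, 521 and 427 CPM and Amotl2 487, 460 and 461 CPM, below all libraries of the washout vehicle. Lats2, at 114, 102 and 117 CPM, and Ajuba, at 102, 96.6 and 91.6 CPM, also lay wholly below it. The remaining 5 genes overlapped the vehicle. How often all tested genes separated in this way was not counted, and 0 of the 9 genes were called at this dose by edgeR. All 9 genes were also negative after washout of 4 mM, with a median of -0.15, and 6 of 9 after 6 mM, while 50.2% and 50.3% of all tested genes were. The shared washout vehicle libraries enter all of these values.

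The direct test of the 10 mM effect after washout against its effect at 4 h called 4 of the 9 genes, against 36.4% of all tested genes (18.0% higher and 18.4% lower). The difference was -1.44 ± 0.34 on the log2 scale for Ctgf (edgeR adjusted p = 0.00198) and -0.80 ± 0.18 for Cyr61 (0.000878). The Ctgf mean at 10 mM was 2481 CPM at 4 h and 1167 CPM after washout, beside 577 and 739 CPM in the vehicle. For Cyr61 the 10 mM means were close, at 359 and 340 CPM, and the vehicle mean was higher after washout (170 and 279 CPM). Amotl2 and Ajuba, which had been lower at 4 h, differed in the other direction by 0.39 ± 0.09 (edgeR adjusted p = 0.00114) and 0.29 ± 0.09 (0.015). At 4 mM 3 genes were called, against 17.3% of all genes (9.44% higher and 7.82% lower). At 6 mM 3 genes were called against 24.4% (12.3% higher and 12.2% lower). At both doses these were Cyr61 and Ctgf, with smaller effects after washout, and Yap1, with a difference of 0.48 ± 0.08 (edgeR adjusted p = 3.61e-05) at 4 mM and 0.44 ± 0.08 (0.000153) at 6 mM. Yap1 after washout of 4 mM measured 197, 193 and 190 CPM, against 198, 193 and 196 CPM in the washout vehicle, so these libraries overlapped. At 1 mM 0 genes were called by edgeR or by DESeq2, 0 had an unadjusted p under 0.05, and 1.09% of all genes were called.

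The vehicle groups of both times also differed. Cyr61 was higher in the washout vehicle by 0.72 ± 0.13 on the log2 scale (edgeR adjusted p = 0.000572) and Ankrd1 by 0.59 ± 0.13 (0.00561), while Axl was lower by a log2 difference of -0.19 ± 0.05 (0.0302), against 6.89% of all genes called (3.33% higher and 3.55% lower). The washout vehicle mean of Cyr61, 279 ± 34.1 CPM (SD, n = 3), was therefore close to the 4 mM mean at 4 h, 271 ± 27.3 CPM (SD, n = 5), and the libraries of these groups overlapped. For Ankrd1 the washout vehicle, at 224 ± 30.1 CPM (SD, n = 3), was likewise near the 10 mM mean at 4 h of 253 ± 27.4 CPM (SD, n = 3), again with overlap. The Axl call was lost without any 1 of 4 vehicle libraries (b or c at 4 h, a or b after washout) and with no filter on low counts.

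Over all 10 groups Ctgf had its lowest mean at 1 mM at 4 h (427 CPM), followed by 1 mM after washout (489 CPM), and neighbouring groups overlapped up to 6 mM after washout (783 CPM). The groups of 4 mM at 4 h and of 10 mM at 4 h each lay apart from the group next below. For Yap1 the 3 lowest means were those of 6, 4 and 10 mM at 4 h, in that order, and 10 mM lay apart from 4 mM. The highest means of Yap1, 189 to 196 CPM, were those of the washout vehicle and of 10, 1 and 4 mM after washout, and these neighbours overlapped. For Ankrd1 every group overlapped its neighbours in the order, from 99.4 CPM at 1 mM at 4 h to 281 CPM after washout of 10 mM. Lats2 also peaked after washout of 10 mM (144 CPM), apart from the group below it, and Tead1 peaked in the washout vehicle (415 CPM).

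**Figure D3:**
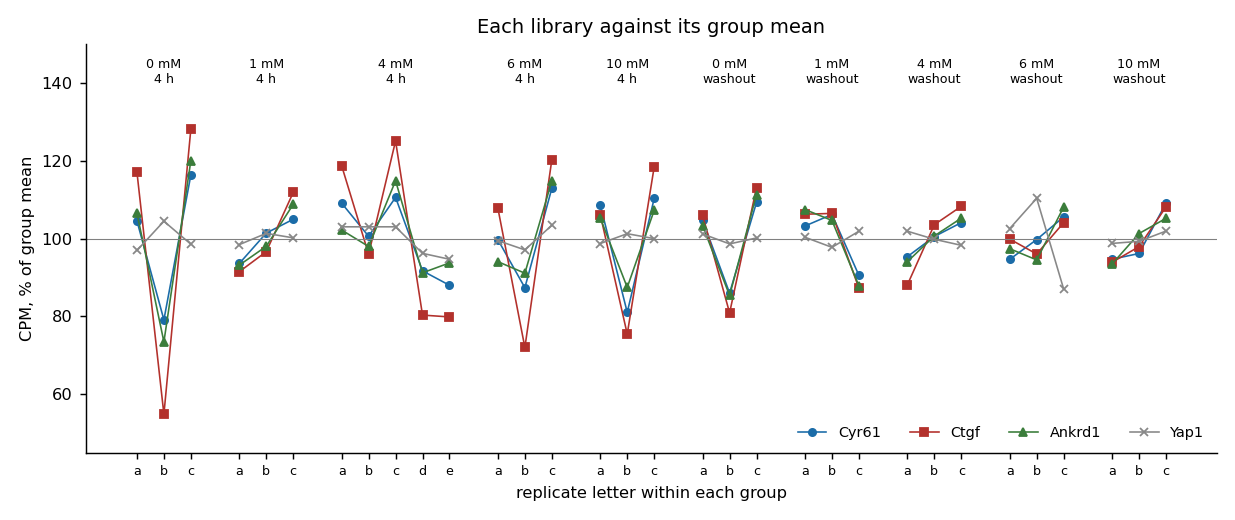
CPM of Cyr61, Ctgf, Ankrd1 and Yap1 in each library as a percent of its group mean (vertical axis), with replicate letters along the horizontal axis under each of the 10 groups. Lines join the libraries of a group only to guide the eye. The first 3 genes share their lowest library in 8 of 10 groups, and replicate b of the vehicle at 4 h is the lowest point of the plot.

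Within groups, Cyr61, Ctgf and Ankrd1 varied together from library to library. The same library was lowest for all 3 genes in 8 of the 10 groups, and the same library was highest for Cyr61 and Ctgf in 10 of 10. Replicate c was the highest library of all 3 genes in 9 of the 10 groups, all but 1 mM after washout. In 4 of those 8 groups with a shared lowest library it was replicate b. In the vehicle at 4 h replicate b was lowest in Cyr61 (134 CPM), Ctgf (317 CPM) and Ankrd1 (109 CPM), and also in Amotl2, Lats2 and Ajuba, but not in Axl, Yap1 or Tead1. Across group means of log2 CPM (n = 10 groups, which share scaling and, in part, dose), Cyr61 and Ctgf had a Pearson r of 0.83, Ctgf and Axl 0.83, Ctgf and Yap1 -0.56, and Axl and Yap1 -0.66. The other r values of Yap1 were -0.31 with Cyr61, -0.09 with Ajuba, 0.18 with Amotl2, 0.27 with Lats2, 0.31 with Tead1 and 0.48 with Ankrd1. Ankrd1 had an r of 0.64 with Cyr61 and 0.39 with Ctgf. These values are descriptions over few groups.

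Among all other tested genes, the 5 whose group means followed Cyr61 most closely were Tgfb1i1 (r = 0.953), Fhl2 (0.945), Sox13 (0.945), Cdk18 (0.916) and Stbd1 (0.914), over the 10 groups. For Ctgf they were Slc12a4 (0.966), Rnd1 (0.956), Edn1 (0.949), Anxa3 (0.947) and Lrrfip1 (0.946). Rnd1 had a mean of 26.6 CPM in the vehicle and 62.9 CPM at 10 mM at 4 h. Fhl2, a LIM protein that binds actin regulators, went from 31.4 to 61.2 CPM. Edn1, the vasoconstrictor peptide endothelin, was low, at 4.1 and 9.06 CPM.

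Further YAP and TAZ targets moved in mixed directions. Of 16 such genes listed, 15 were tested, and at 10 mM at 4 h 4 were called higher and 2 lower, with a median log2 fold change of 0.07. Over all tested genes 26.0% were called higher and 24.1% lower in that comparison. Gadd45a, which is also a p53 target, rose from 7.32 ± 2.15 to 39.6 ± 2.60 CPM (SD, n = 3 each), a log2 fold change of 2.44 ± 0.15 (edgeR adjusted p = 9.9e-14). F3, the tissue factor gene, rose by 1.25 ± 0.12 (edgeR adjusted p = 4.74e-10) and Nt5e, the ecto-enzyme CD73, by 0.42 ± 0.08 (2.82e-05). Asap1, an Arf GTPase activator, fell by 0.52 ± 0.12 (edgeR adjusted p = 0.000486) and Arhgef17 by 0.36 ± 0.12 (0.0168).

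Of 22 other Hippo pathway genes, all tested, 6 were called higher and 2 lower at 10 mM at 4 h, with a median of 0.01, against 26.0% of all tested genes called higher and 24.1% lower. The cofactor Vgll4, which competes with YAP1 for TEAD, rose by 0.65 ± 0.14 (edgeR adjusted p = 0.000262). Wwc2, a scaffold of the KIBRA family, rose by 0.56 ± 0.08 (edgeR adjusted p = 2.3e-06) and the kinase Map4k4 by 0.39 ± 0.07 (1.4e-05). The kinases Taok3 and Taok2 fell by 0.39 ± 0.12 and 0.33 ± 0.09 (edgeR adjusted p = 0.0089 and 0.00188). At 4 mM the balance was 2 higher and 7 lower, against 19.5% and 19.1% of all genes. The 6 mM dose had 2 higher and 3 lower, against 20.3% and 19.6%. Without replicate c of 6 mM after washout the 10 mM dose had 6 higher and 4 lower, the 4 mM dose 3 and 9, and the 6 mM dose 3 and 5. The share of all tested genes called was then 54.9% at 10 mM, 44.3% at 4 mM and 45.8% at 6 mM.

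Targets of SRF with its actin-sensing cofactor MRTF, several of which are shared with YAP in other cells, were mostly higher at 10 mM at 4 h. Of 15 listed, 14 were tested, and 11 rose and 0 fell at that dose, with a median log2 fold change of 0.38. Of all tested genes 26.0% were called higher there and 24.1% lower. This list, like those above, was chosen with earlier results of these data known, so its counts are a description. At an unadjusted p under 0.05 there were 11 in all, and DESeq2 called 11 higher and 0 lower. Fhl2 rose by 0.97 ± 0.10 (edgeR adjusted p = 1.76e-09), Tagln, a smooth muscle actin-binding protein, by 0.59 ± 0.12 (9.91e-05), and the cytoplasmic actin Actg1 by 0.57 ± 0.08 (2.52e-07). The 4 and 6 mM doses gave 6 higher each, beside 2 and 1 lower, where 19.5% and 20.3% of all genes were called higher and 19.1% and 19.6% lower. At 1 mM edgeR called 2 lower and 0 higher, as did DESeq2, and 3 had an unadjusted p under 0.05, with 4.48% of all genes called higher and 5.36% lower.

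**Figure D4:**
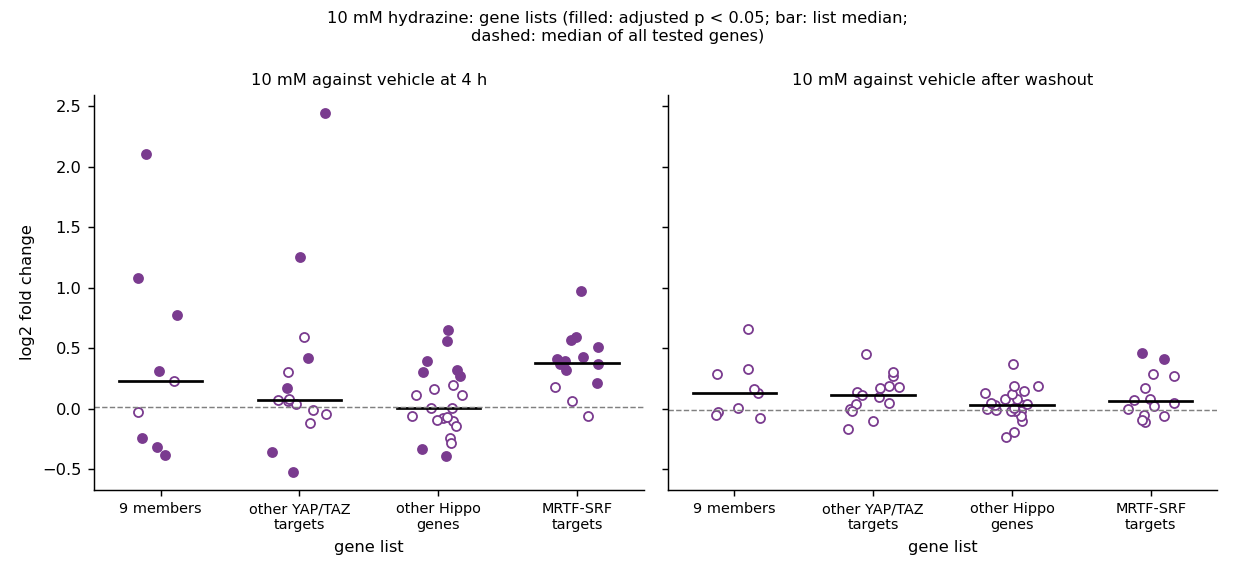
Log2 fold change (vertical axis) of every tested gene in the 9 genes and the 3 gene lists (horizontal axis), for 10 mM against vehicle at 4 h on the left and after washout on the right. Filled points passed adjusted p under 0.05, bars are list medians and the dashed line is the median of all tested genes. The MRTF-SRF targets have a median of 0.38 at 4 h and 0.06 after washout.

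After washout of 10 mM, 0 of the 15 further YAP and TAZ targets and 0 of the 22 Hippo genes were called by edgeR. At an unadjusted p under 0.05 there were 2 and 4, and DESeq2 called 0 and 1. Of the 14 MRTF-SRF targets 2 were called higher, Myl9 at 0.46 ± 0.12 (edgeR adjusted p = 0.02) and Fhl1 at 0.41 ± 0.06 (8.1e-05), with a list median of 0.06. Over all tested genes 3.38% were called higher in that comparison. Without replicate c of 6 mM after washout 3 of the further YAP and TAZ targets and 3 MRTF-SRF targets were called higher, and 1 Hippo gene was higher and 2 were lower. The share of all tested genes called in either direction rose from 5.32% to 9.0% without that library.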

How the data were processed

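Polyadenylated RNA from 32 FE1 samples was sequenced as stranded paired-end libraries, per the labels' protocols. The values deposited by the authors were expected counts, with 1 entry for each gene, and 74.3% of its values above 0 were whole (within 1e-09). The aligner, the counting tool, its use of strand and the genome build are not given in the sources used here. Symbols came from a reference list of gene names by Ensembl identifier, which gave a symbol for 97.2% of entries. Positions and exon lengths came from GENCODE M21 (GRCm38), where 87.8% of entries had the same identifier version.

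Counts were rounded and filtered with edgeR (minimum count 10, minimum total 15) and scaled by TMM. All 32 libraries entered a robust fit with a coefficient for each of the 10 groups, which left 22 residual degrees of freedom and had a common biological coefficient of variation of 0.0847. The 16 comparisons used the quasi-likelihood test of edgeR, with p-values adjusted by Benjamini-Hochberg over the 13258 genes tested. Standard errors were the absolute log2 fold change divided by the square root of F, and log2 CPM used a prior count of 2. No libraries of the same group were copies (replicates differed by a chi-square of at least 2.10 per degree of freedom). Copies between groups were not looked for. The fit was tested on simulated data.

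Alternatives were DESeq2 in place of edgeR (Wald test), its size factors in place of TMM, dropping the filter, dropping robust estimation, fitting each time point alone, adding a block for the replicate letter, leaving out replicates d and e of 4 mM, and leaving out each library in turn. The 9 genes and the gene lists were chosen with earlier results of these data known. Beyond the 9, the genes named were up to 3 called genes per list and direction with the largest change at 10 mM and at least 5 CPM, and the 5 genes most like Cyr61 and Ctgf. The software was edgeR 4.0.16, DESeq2 1.42.0 and limma 3.58.1 in R 4.3.3.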

Additional observations from a re-analysis of the deposited data

Results flagged for a closer look

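The effect of hydrazine after washout differed from its effect at 4 h by the direct test of that difference (quasi-likelihood test of edgeR, Benjamini-Hochberg adjustment) in 5 genes. The test called 3, 3 and 4 of the 9 genes at 4, 6 and 10 mM. Of all tested genes it called 17.3%, 24.4% and 36.4% in the same order. For Cyr61 the log2 effect after washout minus that at 4 h was -0.82, -1.03 and -0.80 for doses of 4, 6 and 10 mM. Ctgf gave -1.14, -1.28 and -1.44 in the same order. Yap1 differed in the other direction, by 0.48 at 4 mM and 0.44 at 6 mM. At 10 mM Amotl2 differed by 0.39 and Ajuba by 0.29. The Ajuba difference was not called without vehicle replicate a at 4 h, where its adjusted p was 0.0521. The vehicle mean of Cyr61 was itself higher after washout (279 CPM) than at 4 h (170 CPM). Its means at 4 h and after washout were 271 and 252 CPM at 4 mM, 341 and 276 CPM at 6 mM, and 359 and 340 CPM at 10 mM.

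In the group of 5 libraries at 4 mM and 4 h, Tead1 had a low library, replicate d at 276 CPM, while the other libraries ran from 325 to 344 CPM. Its gap to the nearest library was 0.718 of the range of the group, above the critical value of 0.71 for 5 samples. Chance marks about 1 in 20 such groups, and 9 genes were examined in this group.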

How the results depend on the processing

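Of 43 calls of the 9 genes over the 16 comparisons, 33 held under all alternatives, 10 were lost under at least 1, and 0 changed direction. With each library left out in turn, the number of genes called against vehicle at 4 h ranged from 1 to 5 at 1 mM, 3 to 5 at 4 mM, 3 to 6 at 6 mM and 7 to 8 at 10 mM. After washout it ranged from 0 to 2, 0 to 1, 0 to 2 and 0 to 1. Between doses it ranged from 5 to 7 (4 against 1 mM), 0 to 1 (6 against 4 mM) and 3 to 7 (10 against 6 mM). For the effect after washout minus that at 4 h the range was 0 to 0 at 1 mM, 3 to 3, 3 to 4 and 4 to 6, and for the vehicle groups it was 2 to 4. These ranges, and the counts of other fits below, have no share of all tested genes beside them. That share moved as well. At 1 mM and 4 h it was 9.84% in the fit of all libraries and 4.96% without vehicle replicate c. It was 14.9% there without replicate c of 6 mM after washout. The DESeq2 Wald test called 1 gene after washout of 1 mM (Amotl2), 1 after 6 mM (Tead1), 1 after 10 mM (Axl), 2 for 6 against 4 mM and, in addition, Axl for 4 against 1 mM. That Tead1 call includes replicate c of 6 mM after washout, where Tead1 was at 201 CPM against 383 and 374 CPM in its group mates. The fit of a single time point called 1 gene after washout of 10 mM (Ctgf) and 1 for 6 against 4 mM (Axl), and at 4 h it added Tead1 at 4 mM (-0.13), at 10 mM (0.19) and for 10 against 6 mM (0.21), and Axl for 4 against 1 mM (0.13). Axl for 4 against 1 mM was also called without robust estimation. Left-out libraries moved Lats2 at 10 mM and 4 h between -0.10 and 0.03 (0.03 without replicate b of 10 mM), and Amotl2 after washout of 10 mM between -0.02 and 0.03 (-0.02 without replicate a of 10 mM), neither of them called.

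Over all tested genes, deviations of libraries with the same letter had a median r of 0.006 over 135 pairs, and 11 pairs exceeded 0.1, so the letters were not taken as pairs. For Cyr61, Ctgf and Ankrd1, however, replicate c was the highest library in 9 of 10 groups, and the block lowered the SE of the 10 mM effect of Ctgf at 4 h from 0.25 to 0.20 and that of Cyr61 from 0.13 to 0.10. With a block for the replicate letter, 1 gene was called after washout of 10 mM (Ctgf, 0.67, edgeR adjusted p = 0.0451, range 0.00682 to 0.365), and Ankrd1 (0.32) was called for 4 against 1 mM and (-0.44) for the 10 mM difference between times. Under the same block Ankrd1 at 4 mM and Lats2 for 4 against 1 mM were not called. The cause was not tested. Groups of 3 libraries limit all of these tests, and depth was at least 965 counts per library for each of the 9 genes.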

Other observations

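F3, which encodes tissue factor and belongs to the further YAP and TAZ targets, had a course over dose at 4 h that went below and then above the vehicle. It stood at 89.9 ± 14.3 CPM (SD, n = 3) in the vehicle, 54.2 ± 5.63 at 1 mM, 79.2 ± 10.1 (n = 5) at 4 mM, 123 ± 15.3 at 6 mM and 214 ± 26.2 CPM at 10 mM. The log2 fold change was -0.73 ± 0.12 at 1 mM (edgeR adjusted p = 0.000207), not called at 4 mM (0.167), and 0.46 ± 0.12 at 6 mM (0.0022). Ankrd1 was likewise lower at 1 mM and higher at 10 mM. After washout of 10 mM F3 was at 131 ± 6.73 CPM against 115 ± 11.6 CPM, with overlapping libraries and no call (edgeR adjusted p = 0.431).

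Gadd45a had most of its rise at 4 mM, with 32.2 ± 1.75 CPM (n = 5) at 4 mM, 40.5 ± 3.10 CPM at 6 mM and 39.6 ± 2.60 CPM at 10 mM, against 7.32 ± 2.15 CPM in the vehicle, and its 6 and 10 mM libraries overlapped. Wwc2, the KIBRA family scaffold, went from 258 ± 6.98 CPM in the vehicle to 309 ± 12.7 CPM (n = 5) at 4 mM and to 380 ± 16.8 and 381 ± 10.7 CPM at 6 and 10 mM. Its log2 effects after washout were lower than at 4 h by the direct test at 4, 6 and 10 mM, with differences of -0.35 ± 0.11, -0.77 ± 0.12 and -0.48 ± 0.12 (edgeR adjusted p = 0.0308, 1.65e-05 and 0.00204). The 6 mM value includes replicate c of 6 mM after washout, which stood apart from its group, and is not given without it.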
